A study of Mus musculus with 10 samples.

Results

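In an attempt to compare where a histone mark and a transcription factor were placed in the same activated cells, H3K9lc regions were set beside c-JUN (JUN) regions in TGF-β-treated mouse cardiac fibroblasts. A region was kept when a peak had been called in the TGF library and at least 20 TGF reads lay in it. By this rule 28833 of 74751 listed H3K9lc regions and 48607 of 72990 listed JUN regions were kept, 77440 of 147741 in all. Just inside the limit, 1332 H3K9lc and 1212 JUN regions held 20 reads, and just outside it 1436 and 1167 held 19. The kept regions held 1986629 H3K9lc reads and 3875839 JUN reads. H3K9lc reads lay mainly between genes and in repeated sequence. Odorant receptor, pheromone receptor and clustered protocadherin genes had H3K9lc more often than JUN, with 1.78%, 3.33% and 0.194% of its reads. JUN reads lay mainly in sequence found a single time in the assembly, at promoters and introns and between genes. Matrix, contractile, immediate early and TGF-β pathway genes had JUN more often than H3K9lc, as did all listed genes (70.2% against 40.8%), and held 0.533%, 0.286%, 0.389% and 0.503% of JUN reads.

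The cells were primary fibroblasts from mouse heart, profiled by CUT&Tag-seq, a method in which a transposase held at the antibody cuts and tags the DNA nearby for sequencing. Both libraries compared came from cells given TGF-β (TGF). The siHK1 libraries of the same antibodies came from cells in which an siRNA against Hk1 preceded TGF-β. The labels give no age, sex or strain, and nothing in them says that the libraries came from separate cultures. Each antibody had 1 library per condition. No difference was therefore tested, and each siHK1 library is given only as a second library of another treatment. SMAD3 and NFATC2 libraries of TGF-treated cells were used to see which regions recur with other antibodies. By the same rule only 2132 of 58633 listed SMAD3 regions and 1784 of 68767 listed NFATC2 regions were kept. A region that overlapped neither may thus have had too few reads in those libraries.

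H3K9lc is lactate attached to lysine 9 of histone H3, a modification that depends on the cell's lactate pool, which glycolysis fills. JUN is a subunit of AP-1, a dimer of basic leucine-zipper proteins that binds the short palindromic site TGACTCA, which reads TGAGTCA on the other strand. AP-1 is induced by growth factors, stress and TGF-β, and in fibroblasts it is known for driving matrix, cytoskeletal and immediate early genes. A histone mark and a DNA-binding factor thus have different ways of finding their sites, the former through enzymes acting on nucleosomes and the latter through sequence.

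The following 100-base pieces show the AP-1 letters TGAGTCA or TGACTCA, in capitals, in JUN regions that were picked by reads and not by sequence. They lie in promoter and distal regions among the 3 with the most JUN reads of each class, taken over regions that occur a single time in the assembly and are under 25% repeat-masked. Rn45s was left out of this pick, and its conditions were set after the values were seen. Each piece was placed on the match nearest the region's middle, which lay 261, 39, -408 and -16 bp from it in the order shown. The Ralgds and Gadd45g matches are thus outside the central 200 bp searched below. All are GRCm38, plus strand, 5′ to 3′.
Ralgds promoter, chr2:28525358-28525457: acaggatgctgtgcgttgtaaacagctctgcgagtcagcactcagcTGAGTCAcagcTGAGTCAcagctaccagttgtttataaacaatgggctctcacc
Plec promoter, chr15:76196279-76196378: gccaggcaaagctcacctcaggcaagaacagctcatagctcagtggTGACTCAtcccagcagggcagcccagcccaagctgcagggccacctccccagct
Gadd45g distal, chr13:51969026-51969125: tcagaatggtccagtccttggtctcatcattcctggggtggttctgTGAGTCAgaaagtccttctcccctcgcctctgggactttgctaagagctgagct
Twsg1 distal, chr17:65961725-65961824: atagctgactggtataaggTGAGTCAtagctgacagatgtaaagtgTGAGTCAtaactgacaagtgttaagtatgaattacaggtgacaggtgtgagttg
The Ralgds region (1141 TGF reads) held 5 matches to TGANTCA over its whole length, the Plec region (1067 reads) 3, the Gadd45g region (931 reads) 4 and the Twsg1 region (834 reads) 17. In the siHK1 library these regions held 663, 420, 440 and 368 reads. Ralgds encodes an exchange factor for Ral GTPases, Plec the cytoskeletal linker plectin, Gadd45g a stress-induced growth regulator and Twsg1 a secreted modulator of BMP signalling.

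H3K9lc regions instead shared long stretches with each other. The 31-base words below were the leading ones after each was ranked by how many further kept H3K9lc regions it occurred in, simple repeats left out. They are shown because they recur across many H3K9lc regions.
Word 1: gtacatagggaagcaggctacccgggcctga
Word 2: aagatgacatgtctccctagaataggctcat
Word 3: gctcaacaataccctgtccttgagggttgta
Word 4: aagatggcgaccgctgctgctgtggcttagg
Word 1 occurred in 1420 kept H3K9lc regions (4.92%) and in 1 kept JUN region. Words 2, 3 and 4 occurred in 1210, 1174 and 1001 kept H3K9lc regions and in 0 of 48607 JUN regions, which allows a share of up to 3 regions in that number. Of the regions with word 1, 74.4% were distal intergenic, 23.9% intronic and 0.493% at promoters. Together with 4 further words, one of them a run of ca, they reached 7392 H3K9lc regions (25.6%) with 19.2% of the kept reads. The words most often shared among JUN regions were plain repeats of ca (2370 regions) and ct (931 regions), and the ca repeat was also in 955 H3K9lc regions. No repeat annotation was used, so no family is named.

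Some places ranked high with both antibodies. The region with the second most H3K9lc reads and the most JUN reads was the same stretch of chromosome 2, assigned to Lrrc4c, a synaptic adhesion gene whose start site lies 1198151 bp away. It held 42265 H3K9lc reads (chr2:98666240-98667320) and 15742 JUN reads (chr2:98666245-98667321). Its centre is printed because reads in it weigh on both totals.
Lrrc4c, H3K9lc region, chr2:98666730-98666829: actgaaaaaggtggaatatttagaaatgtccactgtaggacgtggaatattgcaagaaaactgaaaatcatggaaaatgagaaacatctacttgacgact
Neither region held a match to TGANTCA. In the siHK1 libraries the same regions held 30866 H3K9lc and 13901 JUN reads. Of the 100 H3K9lc regions with the most reads, 93 overlapped kept regions of JUN, SMAD3 and NFATC2 alike, as did 47 of the 100 top JUN regions. In all, 521 H3K9lc regions (1.81%) overlapped kept regions of all 3 other antibodies, and they held 31.1% of kept H3K9lc reads. For JUN it was 522 regions (1.07%) with 4.79% of reads. Annotation classes and the shares of the leading genes are also given below without every region shared with any other antibody, a wider set. The chromosome, window, AP-1 and gene-group comparisons below are not given without those regions.

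The number of genome copies separated the mark from the factor. For each kept region the copies of 5 evenly spaced 31-base words were counted in the assembly, and the median was taken. A region found a single time has a median of 1, and it can still hold words that are repeated. Of the H3K9lc regions 63.7% had a median above 1, with 69.2% of the reads. Of the JUN regions 3.28% had one, with 5.69% of the reads. The median H3K9lc region was at 6 copies (upper quartile 406), and 13.8% of regions were at 1000 copies or more against 0.0576% of JUN regions. The siHK1 libraries held the same contrast, with 69.1% of H3K9lc and 2.56% of JUN regions above 1 copy. SMAD3 and NFATC2 regions lay between, at 48.1% and 45.3% of the 2132 and 1784 kept. Their 10 top regions held 35.3% and 39.8% of kept reads, so these shares are not on equal terms with those of JUN. Reads from such copies may not be told apart, which was not measured at the read length, and how the aligner placed them is not given in the sources used here. The gene name attached to a repeated region is therefore less certain.

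**Figure D1:**
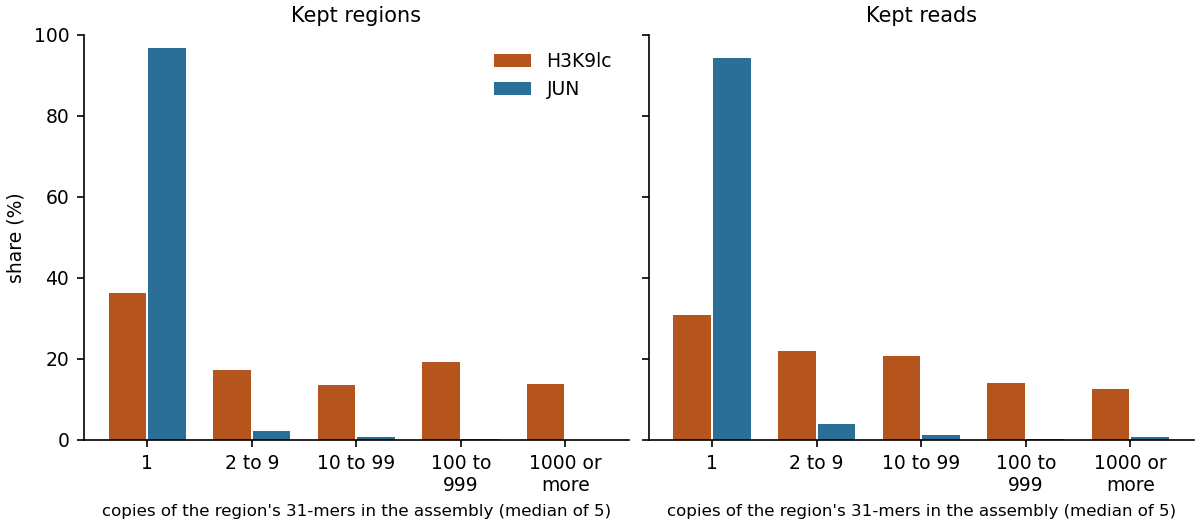
Share of kept regions (left) and of reads in them (right), in percent, by the median number of copies of a region's 31-base words in the GRCm38 assembly, for the TGF libraries of H3K9lc (brown) and JUN (blue). JUN bars stand almost entirely at 1 copy (96.7% of regions), whereas H3K9lc bars spread over all classes (36.3% at 1 copy).

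Repeat masking gave the same order. The median H3K9lc region was 81.1% masked in the RefSeq assembly and the median JUN region 8.97%, beside 34.3% of the genome. At promoters the H3K9lc median was 17.8%, in introns 84.0% and between genes 89.3%. JUN medians were 6.56%, 9.67% and 10.7% in those classes. GC content hardly differed, with medians of 49.5% in H3K9lc regions and 48.7% in JUN regions. Regions were also alike in width, with medians of 595 and 561 bp.

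The annotation classes were compared next. Promoters (within 3 kb of a start site) took 5.98% of H3K9lc reads (95% interval 5.94 to 6.01) and 24.5% of JUN reads (24.4 to 24.5), 4.10 times as large a share. Within 1 kb of a start site the shares were 3.06% and 17.4%. Distal intergenic sequence took 58.7% of H3K9lc reads (58.7 to 58.8) and 33.5% of JUN reads (33.5 to 33.6), and introns 21.3% and 33.5%. Exons were higher for H3K9lc, at 13.1% against 6.78%. The 3′ UTR class held 0.715% and 1.37%. Intervals of shares are exact (Clopper-Pearson). They cover counting error alone, and PCR duplicates make the true error larger.

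**Figure D2:**
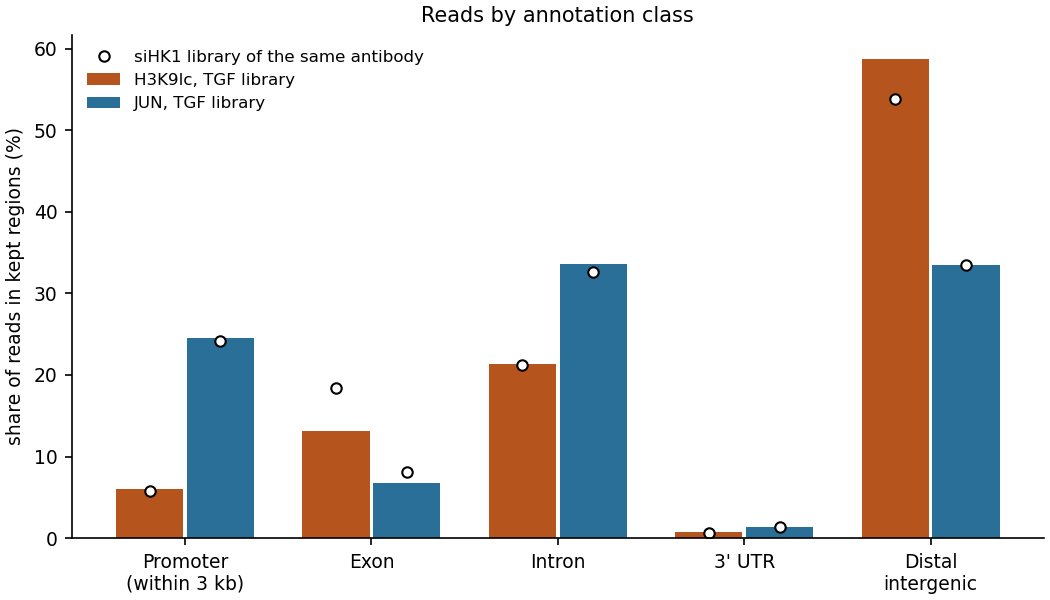
Share of reads in kept regions (%) by annotation class for H3K9lc (brown bars) and JUN (blue bars) in the TGF libraries, with the siHK1 library of each antibody as an open circle. Promoters take 5.98% of H3K9lc and 24.5% of JUN reads, and the order of the antibodies is the same in the siHK1 libraries in each class drawn.

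The siHK1 libraries gave 5.79% of H3K9lc reads and 24.2% of JUN reads at promoters, and 53.8% and 33.5% between genes. The antibody difference was thus far larger than the difference between the libraries of an antibody. Exons moved more between H3K9lc libraries, from 13.1% to 18.4% in siHK1. The exon class also had the most H3K9lc reads per covered kb, 263 against 99.1 in introns. Where every region shared with another antibody was left out, H3K9lc exons fell to 5.65% of reads, beside 4.94% for JUN. Promoters stayed at 5.22% and 24.3% under that restriction. Among regions found a single time in the assembly, promoters took 10.4% of H3K9lc and 25.5% of JUN reads, so that the ratio fell from 4.10 to 2.45, while the distal shares (58.8% and 33.6%) were close to those of all kept regions.

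Distance to the nearest start site ran the same way. The median was 48131 bp for H3K9lc regions and 14610 bp for JUN regions. Between 100 kb and 1 Mb away there were 9350 H3K9lc regions (32.4%) and 5842 JUN regions. At over 1 Mb there were 539 H3K9lc regions and 53 JUN regions. The share of repeated H3K9lc regions was 51.8% at 1 to 10 kb from a start site and 79.6% beyond 1 Mb.

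Reads were then apportioned to the 19 autosomes, as a share of all autosomal reads and relative to the share of autosomal length. JUN shares followed length closely, between 0.802 times the length share on chromosome 14 and 1.32 times on chromosome 11. H3K9lc ranged wider, between 0.560 times on chromosome 19 and 2.12 times on chromosome 17. Chromosome 19 held 1.40% of H3K9lc reads (95% interval 1.38 to 1.41) and 2.95% of JUN reads, a ratio of 2.11. Chromosome 11 held 3.31% and 6.53% (ratio 1.97) and chromosome 15 held 2.59% and 4.48% (1.73). Chromosomes 17, 9, 12, 4 and 13 leaned to H3K9lc, with JUN over H3K9lc ratios of 0.560, 0.739, 0.765, 0.790 and 0.799. The direction turned on chromosome 9 when regions were counted (1.39) or only regions found a single time were used (1.11), and on chromosome 13 under the latter (1.22).

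**Figure D3:**
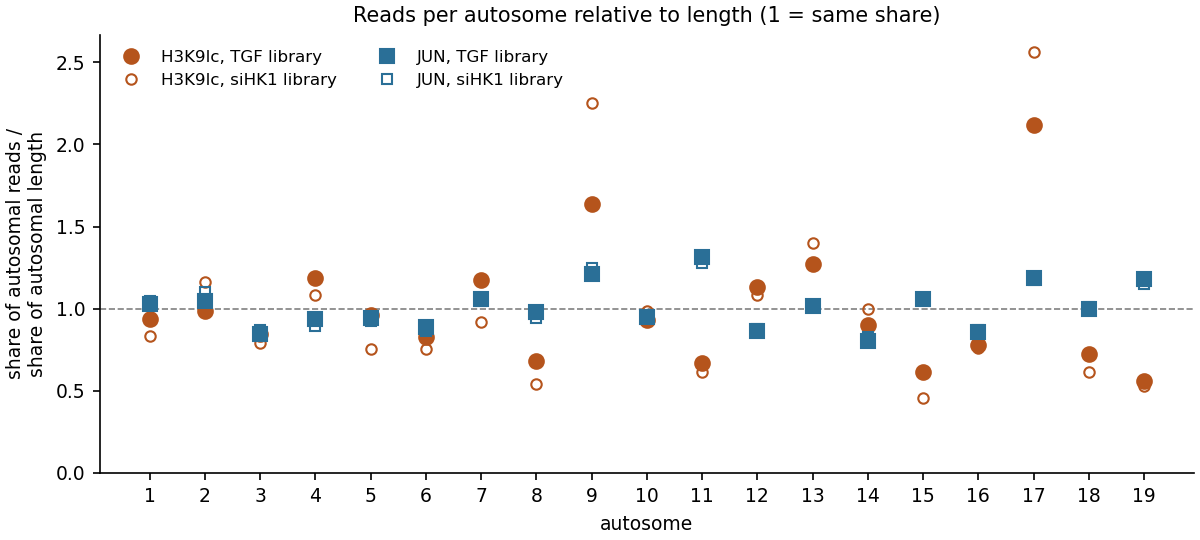
Share of autosomal reads divided by share of autosomal length for each autosome, for H3K9lc (circles) and JUN (squares), filled for the TGF and open for the siHK1 libraries; the dashed line marks equal shares. JUN points stay between 0.802 and 1.32 in the TGF library, while H3K9lc spans 0.560 on chromosome 19 to 2.12 on chromosome 17.

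On chromosome 17 a single intronic region of 2700054A10Rik (chr17:13550673-13553195, 17 copies, 97.9% masked) held 52412 H3K9lc reads, 34.6% of that chromosome's total, against 1370 JUN reads. Counted by regions rather than reads the ratio on chromosome 17 was 0.982, and without the 1% of kept regions with the most reads it was 1.03. Among regions found a single time, which leave out the 2700054A10Rik region, it was 0.448, with 10.3% of H3K9lc and 4.61% of JUN reads. Pisd-ps2 on this chromosome held 33830 H3K9lc reads, only 3740 of them in repeated regions, against 4750 JUN reads. It thus weighs on that value. Chromosome 11 kept a ratio of 1.83 by regions but fell to 1.12 among regions found a single time in the assembly. Chromosome 19 was at 1.82 by regions and 1.39 among single-copy regions. In the siHK1 libraries the ratios of chromosomes 19, 11, 15 and 17 were 2.17, 2.08, 2.30 and 0.457.

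Over the 19 autosomes the density of JUN regions went with gene density (Pearson's r 0.72, Spearman's rho 0.68) and with GC content (r 0.82, rho 0.79). For H3K9lc region density r was 0.07 with gene density and 0.13 with GC content. These are descriptions over 19 chromosomes that share their libraries. Chromosome X held 2433 kept H3K9lc regions and 711 JUN regions. Relative to the autosomal total its reads came to 6.73% for H3K9lc and 0.996% for JUN, while its length is 6.94% of the autosomal length. The number of X chromosomes in these cells is not given.

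At a finer scale the mark and the factor hardly went together. In 502 autosomal windows of 5 Mb the numbers of kept H3K9lc and JUN regions had a Spearman's rho of -0.01. The densest H3K9lc window, at 20 to 25 Mb of chromosome 12, held 413 H3K9lc and 30 JUN regions and was led by 1700030C10Rik and 2410018L13Rik. The next, at 145 to 150 Mb of chromosome 4, held 401 and 111 and was led by Zfp982 and 4933438K21Rik. At 20 to 25 Mb of chromosome 7, in a cluster of Vmn1r pheromone receptor genes, there were 334 and 34. At 30 to 35 Mb of chromosome X, with the Btbd35f gene family, there were 262 and 0. In those 4 windows between 81.3% and 96.6% of the H3K9lc regions were repeated.

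**Figure D4:**
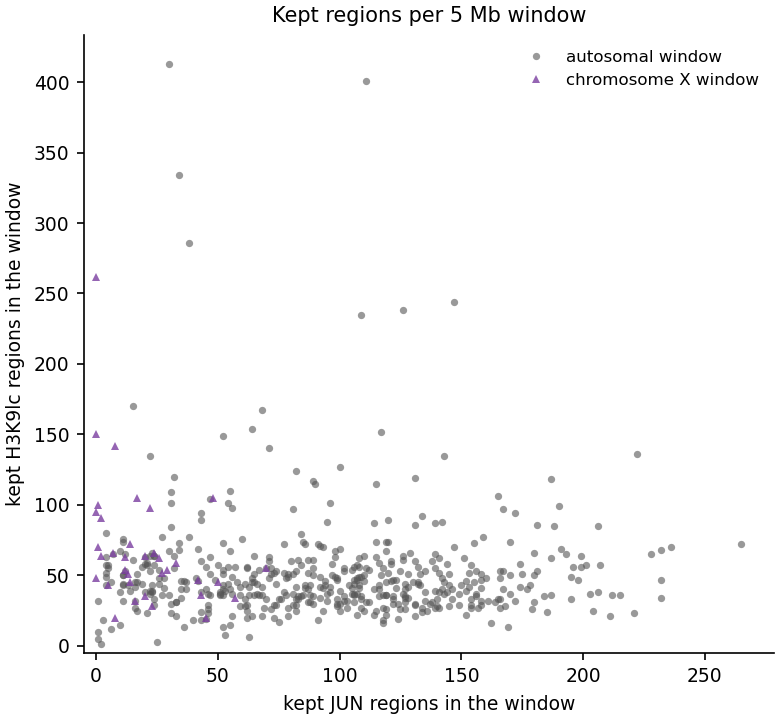
Number of kept H3K9lc regions (vertical) against kept JUN regions (horizontal) in each 5 Mb window, autosomes as grey circles and chromosome X as purple triangles. Windows with over 200 H3K9lc regions, up to 413, hold from 0 to 147 JUN regions, and the window with the most JUN regions (265) holds 72 H3K9lc regions.

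The densest JUN windows lay elsewhere. The first, at 120 to 125 Mb of chromosome 8, held 265 JUN and 72 H3K9lc regions and was led by Foxl1, Banp and Zfp469. Others were led by Ece1 and Capzb on chromosome 4 (236 and 70), by Nfatc2 and Ptpn1 on chromosome 2 (232 and 68) and by Myh9, the non-muscle myosin heavy chain, on chromosome 15 (228 and 65). The 10 densest H3K9lc windows held 9.54% of all H3K9lc regions, and the 10 densest JUN windows 4.72% of all JUN regions.

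Direct overlap involved a small part of the regions in either list. The share that random placement would give was not computed, so whether the overlap lay above or below it was not tested. At least 1 bp was shared by 1469 H3K9lc regions (5.09%, 95% interval 4.84 to 5.35) and 1478 JUN regions (3.04%, 2.89 to 3.20). The overlapping regions held 33.9% of H3K9lc and 7.60% of JUN reads. Among regions found a single time the overlap rose to 7.89% of H3K9lc regions and fell to 1.75% of JUN regions, with 3.41% of JUN reads. Of all 1469 overlapping H3K9lc regions, 768 overlapped neither SMAD3 nor NFATC2, and they held 1.81% of H3K9lc reads with a median of 32 reads. Promoters made up 19.8% of the overlapping H3K9lc regions and 19.7% of the overlapping JUN regions. The median H3K9lc region lay 63.6 kb from the nearest JUN region, and 19.5% lay within 10 kb. With both sets held to regions found a single time these were 29.8 kb and 28.7%. Among the overlaps found a single time in the assembly and under 25% masked, ribosomal RNA gene Rn45s had the most reads with both antibodies. A region 68025 bp downstream of the Axin2 start site (chr11:109011646-109012199) held 653 H3K9lc reads and, over almost the same span, 518 JUN reads.

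The AP-1 letters were searched for as TGANTCA within the 200 bp at a region's middle, on either strand. They were present in 34.2% of kept JUN regions (95% interval 33.8 to 34.7) and in 6.67% of kept H3K9lc regions (6.39 to 6.97). Windows of 200 bp over the genome held them in 5.93% and the 200 bp before RefSeq start sites in 5.48%. The strict palindrome pair TGACTCA and TGAGTCA is contained in TGANTCA and was in 28.6% of JUN and 3.15% of H3K9lc regions, beside 3.11% of genome windows. TGACGTCA, the site of JUN with ATF partners, was in 0.765% of JUN and 0.121% of H3K9lc regions, beside 0.108% of genome windows and 1.47% of promoters. A match describes letters in a window and is not a site.

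The JUN share of TGANTCA grew with reads, from 28.4% in the fifth of kept regions with the fewest reads to 41.3% in the fifth with the most. For H3K9lc the shares were 6.43%, 6.88%, 7.70%, 7.56% and 4.79% from the fifth with the fewest reads to that with the most. JUN regions between genes held the letters in 40.5%, in introns in 38.1% and at promoters in 20.5%, and within 1 kb of a start site in 14.3%. H3K9lc regions held them in 5.45% at promoters, 7.18% in introns and 6.67% between genes. JUN regions that overlapped H3K9lc held them in 19.3%, against 34.2% of all kept JUN regions. Among JUN regions found a single time these shares were 29.9% and 34.8%, and 39.0% of the overlapping JUN regions were repeated.

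Reads were next summed per gene, over every kept region the annotation assigns to it, which can lie far from the gene. Of 20398 genes with a listed region, 8326 (40.8%) had a kept H3K9lc region and 14323 (70.2%) a kept JUN region. Both signals were present at 5527 genes, 66.4% of the H3K9lc genes and 38.6% of the JUN genes. H3K9lc without JUN was found at 2799 genes (13.7%) and JUN without H3K9lc at 8796 (43.1%). The former count was 1608 for regions found a single time, 1777 without distal regions and 807 with promoter regions alone. A gene without a signal had no region passing the rule in the rows used, which does not show that the signal was absent. Of the H3K9lc-only genes, 2121 had no listed JUN region either, and of the JUN-only genes, 5935 had no listed H3K9lc region.

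The regions of genes with a single signal lay as follows. Among H3K9lc-only genes 19.9% had a kept H3K9lc region at a promoter, 48.5% had distal regions alone, and 74.7% of their H3K9lc reads were in repeated regions. Among JUN-only genes 70.5% had a kept JUN region at a promoter, 10.2% had distal regions alone, and 1.74% of their reads were in repeated regions. The closest region of a gene was at a median of 10311 bp from the start site in the former and 57 bp in the latter. At genes with both signals 12.9% had an H3K9lc and 51.1% a JUN region at a promoter, with 67.2% of H3K9lc and 8.89% of JUN reads in repeated regions. The antibodies thus differed in the same direction where genes had both.

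At the 5527 genes with both signals, shares of reads were hardly related, with a Spearman's rho of 0.11 across genes, which are not independent replicates. For comparison, the TGF and siHK1 libraries gave 0.76 for H3K9lc (4705 genes) and 0.92 for JUN (11191 genes). Libraries of the same antibody share a region list, whereas H3K9lc and JUN have separate lists, so these values are not on equal terms. A share at least 4-fold higher in JUN was found at 1088 genes (19.7%) and in H3K9lc at 938 genes (17.0%).

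H3K9lc reads were concentrated on few gene names. The 10 leading genes held 18.3% of kept H3K9lc reads and the 10 leading JUN genes 2.93%, and 331 genes made up the first 50% of H3K9lc reads against 1761 for JUN. The ratio of the shares of the 10 leading genes was 6.24, and 16.2 among regions found a single time. H3K9lc was led by Mir101c (91276 reads, 4.59%, over 30 regions near the start of chromosome 9), 2700054A10Rik (53829 reads), Lrrc4c (52037), Zfp825 (37305) and Pisd-ps2 (33830). The others of the 10 were 9230019H11Rik, Gm5458, Vmn1r2, Col19a1 and Smo, between 24668 and 14163 reads. Repeated regions held all reads of Smo, which encodes the Hedgehog signal transducer Smoothened, and 90994 of the 91276 reads of Mir101c. In the siHK1 library the 5 leading genes held 62637, 34712, 37031, 24082 and 19263 reads.

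JUN was led by Col19a1 (35572 reads), Lrrc4c (21271), Mir101c (19658), Rn45s (8183) and Gm5458 (5774), each also with H3K9lc. Every 31-base word of the 3 Col19a1 regions with the most JUN reads also occurs in the mitochondrial genome. The Fgf14 region, with 5277 JUN and 13272 H3K9lc reads, held the telomere hexamer ccctaa in tandem. Of the 10 leading JUN genes only Pvt1, the non-coding RNA gene beside Myc, and Elmo1 had a larger share in JUN by 4-fold or no kept H3K9lc region. Pvt1 had 4845 JUN reads over 44 regions and 256 H3K9lc reads (log2 ratio of shares 3.28). Elmo1, a partner of Rac exchange factors in cell motility, had 4120 JUN reads over 32 regions and 0 in kept H3K9lc regions.

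The genes with H3K9lc and no listed JUN region were led by 1700030C10Rik on chromosome 12 with 7929 reads over 141 regions. Gm2101 (6495 reads), 4933438K21Rik (5617), Flg2 (5554), Btbd35f10 (5511), 9030624G23Rik (4305), Gm7762 (3652), Gm4425 (3588), Tsn (2955) and Pramel50 (2685) followed. Flg2 encodes a skin barrier protein of the filaggrin family, and its reads were all in repeated regions. Tsn, the nucleic acid-binding protein translin, had 68 regions, 50 of them distal, and the closest lay 92913 bp from its start site. With listed JUN regions allowed, Sp110, a nuclear body protein of immune cells, came first with 8055 reads over 52 regions.

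Irf7 stood apart among the H3K9lc-only genes. Irf7 encodes an interferon regulatory factor, and a single region 986 bp past its start site (chr7:141263456-141264145) held 3301 H3K9lc reads in the TGF library and 4 in the siHK1 library. JUN had no kept region there. This count stands in 1 region of 1 library, and whether it comes from the cells' chromatin was not tested. The region occurs a single time in the assembly and was 6.67% masked, and its centre is shown because, Rn45s left aside, it had the most H3K9lc reads of the regions found a single time and under 25% masked.
Irf7, chr7:141263750-141263849: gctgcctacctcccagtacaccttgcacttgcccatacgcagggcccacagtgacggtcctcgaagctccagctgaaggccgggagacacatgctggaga

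The genes with JUN and no listed H3K9lc region were led by Synb, a fusion protein gene with 3069 reads over 13 regions, all in repeated sequence. Ets1 (2542 reads over 24 regions) and Creb3l2 (2329 over 17) encode transcription factors, the latter a regulator of secretory genes. Trib1 (2409), Capn2 (2257) and Cubn (2102) encode a pseudokinase, a calcium-activated protease and an endocytic receptor. Lmna (2044 reads over 7 regions) encodes lamin A/C, Itga5 (2039 over 9) the α5 subunit of the fibronectin receptor and Synpo (1952 over 11) an actin-associated protein. The remaining member, Mir6950, had 2197 reads, all in repeated sequence. When genes with listed but not kept H3K9lc regions were allowed, Dusp10, a phosphatase for stress-activated MAP kinases (3357 reads), Tns1, a focal adhesion protein (3195), and Klf6, a zinc-finger factor (3043), also ranked in the first 10.

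Among genes with both signals the most JUN-leaning was Asap1, with 3458 JUN reads over 39 regions and 23 H3K9lc reads in 1 region (log2 ratio 6.27, 95% counting interval 5.68 to 6.86). Zfp469 (6.24), Irf2bp2 (6.14), Nav1 (6.14), Bmper (6.12), Zmiz1 (5.94), Col5a1 (5.83), Ank2 (5.77), Prkag2 (5.69) and Smim38 (5.68) followed. Each had a single H3K9lc region of 20 to 27 reads, next to the minimum of 20. Col5a1, a fibrillar collagen chain, had 2330 JUN reads over 26 regions, and Bmper, a secreted BMP modulator, 3397 over 44. At the other end stood C130026I21Rik (-9.65, interval -10.22 to -9.09), with 10309 H3K9lc reads over 49 regions and 25 JUN reads. A530032D15Rik (-8.51), Gm7609 (-8.04), Gpm6a (-7.13), Pramel42 (-6.75), Cdh20 (-6.72), Dux (-6.61), Ythdf3 (-6.39), 4930595M18Rik (-6.35) and Slitrk6 (-6.31) followed. Dux, an embryonic double homeobox gene present in tandem copies, had 5345 H3K9lc reads, nearly all in repeated regions, and 107 JUN reads.

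Gene groups were compared by how many members had each signal, beside 40.8% of all listed genes for H3K9lc and 70.2% for JUN. Over the 5527 genes with both signals the median log2 ratio of JUN over H3K9lc shares was 0.17. Of 26 genes of TGF-β signalling and feedback, 25 had JUN and 13 had H3K9lc, and none had H3K9lc alone. The JUN share of the group was 6.10 times its H3K9lc share (95% counting interval 5.80 to 6.42). Smad7, the feedback inhibitor, had 8 JUN regions and no kept H3K9lc region, and Smad3, the signal transducer, had 22 JUN regions and 1 H3K9lc region.

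Of 25 fibrillar collagen and matrix genes, 21 had JUN and 9 had H3K9lc, with a ratio of shares of 10.6 (9.92 to 11.3). Fbln2, a matrix glycoprotein, had 257 JUN reads per covered kb over 10 regions, and Thbs2, a matricellular protein, had 17 JUN regions. Neither had a kept H3K9lc region. Col2a1, the cartilage collagen, was the only member with H3K9lc alone, in 2 regions.

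Of 22 myofibroblast contractile genes, 20 had JUN and 3 had H3K9lc (ratio 18.7, 16.7 to 21.0). Actn1, Myh9 and Actn4, which encode α-actinins and a non-muscle myosin, had 16, 15 and 12 JUN regions and no kept H3K9lc region. Most H3K9lc reads of the group came from Actg1, with 5 regions, and 87.5% of the group's H3K9lc reads were in repeated regions. Of 20 immediate early genes, all 20 had JUN and 5 had H3K9lc (ratio 24.1, 21.6 to 27.0). Klf4 had 33 JUN regions and 2 H3K9lc regions, and Dusp1 had 286 JUN reads per covered kb over 11 regions. Of 18 YAP and TEAD targets 16 had JUN and 5 had H3K9lc (4.82, 4.50 to 5.17).

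**Figure D5:**
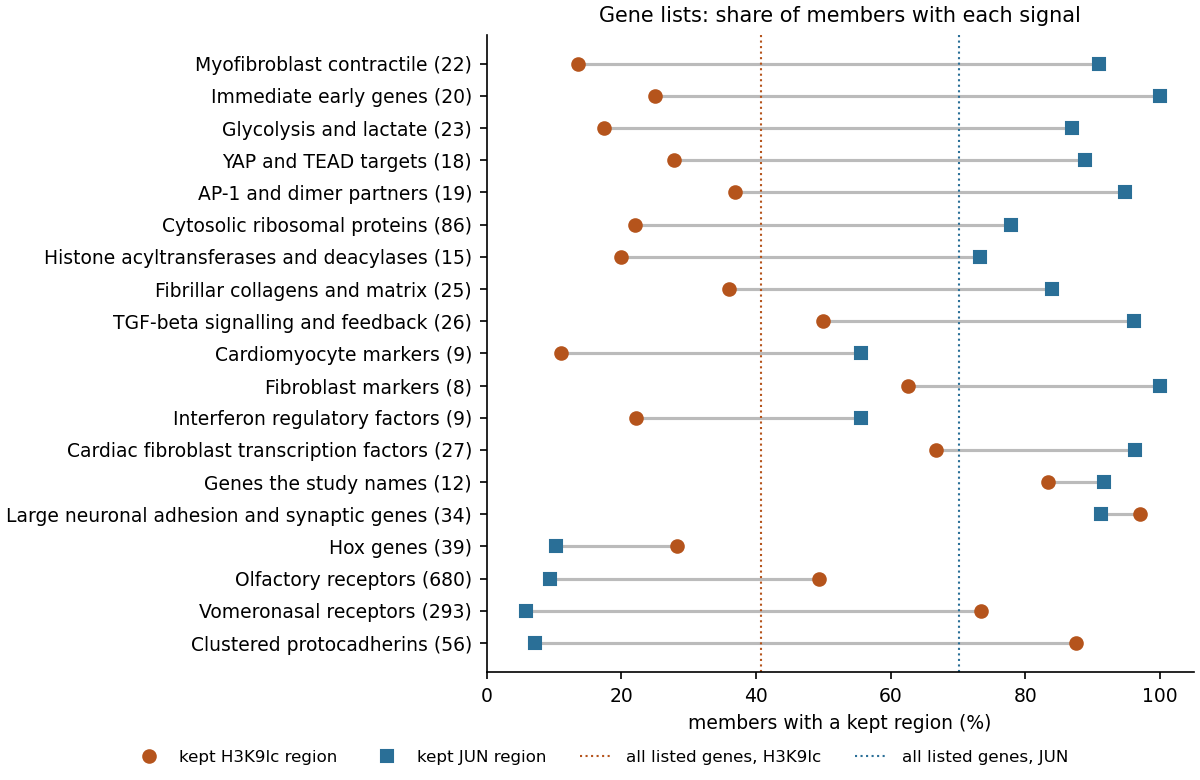
Share of members (%) of each gene group with a kept H3K9lc region (brown circles) and a kept JUN region (blue squares), with the number of members in brackets; dotted lines mark all listed genes (40.8% for H3K9lc, 70.2% for JUN). Groups of 8 or more members are drawn. Contractile and immediate early genes have JUN at over 90% and H3K9lc at 25% or fewer of members, and protocadherins and vomeronasal receptors show the opposite order.

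The AP-1 family itself was covered by JUN at 18 of 19 members and by H3K9lc at 7. Jun had 12 JUN regions and 2 H3K9lc regions, and Fos had 8 and 2. Fosl2, Junb and Atf3 had JUN alone. Of 27 transcription factors of cardiac fibroblasts 26 had JUN and 18 had H3K9lc, above the share of all listed genes for both (ratio of shares 4.94, 4.74 to 5.15). Foxp1 had 45 JUN regions and Runx1 32, beside 3 and 5 H3K9lc regions. At Wt1, an epicardial factor, and at Gata6 the log2 ratios of JUN over H3K9lc shares were -0.30 and -0.01.

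Of 23 glycolysis and lactate genes 20 had JUN and 4 had H3K9lc. Slc2a1, the glucose transporter, had 7 JUN regions, Hk2 11 and Pfkfb3 10, all without a kept H3K9lc region. Pfkp, a phosphofructokinase, had 8 H3K9lc regions and 6 JUN regions. Of 15 histone acyltransferase and deacylase genes 11 had JUN and 3 had H3K9lc, and Ep300 had H3K9lc alone in 1 region. Of 9 interferon regulatory factor genes 5 had JUN and 2 had H3K9lc, and the JUN share was 0.225 times the H3K9lc share, with 3301 of the group's 3431 H3K9lc reads at Irf7. Without Irf7, left out after the values were seen, the ratio was 5.94. Of 86 cytosolic ribosomal protein genes with a listed region 67 had JUN and 19 H3K9lc.

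Sensory receptor and adhesion families ran the other way. For families taken by symbol, members were counted only where either table listed a region. Of 293 vomeronasal receptor genes 215 had H3K9lc and 17 had JUN, and 199 had H3K9lc alone. They took 3.33% of H3K9lc reads and 0.150% of JUN reads (ratio 0.0451, 0.0439 to 0.0463). Vmn1r2 alone held 20444 of these 66059 H3K9lc reads and 3009 of the 5809 JUN reads. Of 680 olfactory receptor genes 336 had H3K9lc and 64 had JUN, with 1.78% and 0.166% of reads. Of 56 clustered protocadherin genes, which lie side by side in a single array, 49 had H3K9lc and 4 had JUN, and 24.6% of their H3K9lc reads were in repeated regions. Neighbouring members of such families share regions and sequence and are not independent.

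Of 34 large neuronal adhesion and synaptic genes 33 had H3K9lc and 31 had JUN, and the JUN share was 0.330 times the H3K9lc share (0.322 to 0.338). Cdh18 had 33 H3K9lc and 7 JUN regions, Dpp10 28 and 3, and Lrp1b 27 and 1. Some members went the other way, such as Dlg2 (6 and 17), Opcml (3 and 14) and Robo1 (0 and 7). Repeated regions held 80.7% of the group's H3K9lc reads. Of 39 Hox genes 11 had H3K9lc and 4 had JUN. Of the 27 with a listed region these were 40.7% and 14.8%, beside 40.8% and 70.2% of all listed genes. The other fixed groups had at most 3 members without a listed region. Hoxb13 had 6 H3K9lc regions and no kept JUN region. Only 4.39% of the Hox group's H3K9lc reads were in repeated regions.

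Where members had both signals, the median log2 ratio was 1.94 for TGF-β signalling (13 genes), 3.55 for matrix (8), 3.14 for immediate early (5), 2.63 for cardiac fibroblast factors (18) and 0.90 for AP-1 (7). It was -1.89 for neuronal adhesion (30), -2.71 for vomeronasal (16) and -1.57 for olfactory receptor genes (21). The median and the ratio of summed shares pointed opposite ways for glycolysis (-0.14 and 7.30), acyltransferases and deacylases (-1.66 and 1.83), ribosomal proteins (-0.37 and 1.19) and cardiomyocyte markers (-0.12 and 1.66). They also did so for Hox genes (2.65 and 0.453), protocadherins (0.65 and 0.0418) and the study's genes (1.42 and 0.794). The median covers only members with both signals, a single gene for Hox genes, for protocadherins and for cardiomyocyte markers. The ratio of the study's genes was 2.19 without Irf7.

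Marker genes of cell types were set beside these. All 8 fibroblast markers had JUN and 5 had H3K9lc, among them Thy1 with 8 JUN regions and Ddr2 with 11. Lum went the other way, with 6 H3K9lc regions and 1 JUN region (log2 ratio -4.13), and Dcn was near equal (0.32). Of 9 cardiomyocyte markers 5 had JUN and 1 had H3K9lc. JUN was also present at all 5 endothelial, 3 of 5 macrophage and all 4 mural cell markers, and H3K9lc at 3, 1 and 0. A kept region near a marker says nothing of its expression, so these counts do not test the labelled cell type.

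Of the 12 genes the study names, 6 of the 9 with both signals had a larger share in JUN, 2 had JUN alone and Irf7 had H3K9lc alone, with 3301 of the group's 5184 H3K9lc reads. Col1a1 had 1657 JUN reads over 10 regions, and Acta2, which encodes smooth muscle actin, 237 over 2. Neither had a kept H3K9lc region. The paper names both, with Postn, Col1a2, Col3a1, Lox, Axin2, Smyd3 and Cdk1, among genes that appeared to be marked by H3K9lc. Postn, which encodes periostin, had 861 JUN reads over 11 regions and 22 H3K9lc reads (log2 ratio 4.33, 3.72 to 4.94). Hk1 had 827 JUN reads over 5 regions and 26 H3K9lc reads (4.03, 3.46 to 4.59). Lox (4.21), Col1a2 (3.93), Col3a1 (1.42) and Smyd3 (0.93) also leaned to JUN. The H3K9lc reads of Postn, Hk1, Lox and Col1a2 lay in 1 region each, near the minimum of 20. Those of Lox (21 reads, 1171 copies) and Col1a2 (20 reads, 253 copies) were in repeated sequence. The Col1a2 region lay 140247 bp from the start site and the Postn region 57048 bp. Axin2, a Wnt feedback gene, leaned to H3K9lc, with 1123 reads over 9 regions and 638 JUN reads over 3 (-1.78). Cdk1 (-2.15) and Slc40a1 (-1.17) did so on 82 and 23 H3K9lc reads.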

How the data were processed

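CUT&Tag-seq libraries of TGF-treated cells were compared over the regions in the deposited tables. The authors counted reads per region in each library (raw counts, used as deposited) and marked called peaks. The submitters' processing notes name BWA 0.7.12 and mm10, while the methods name another aligner and build. Transcript coordinates in the tables match GRCm38 (mm10), which is used here. Normalized log2 values, log2 ratios, p-values and change calls of the authors were not used, nor were 10 count and peak-mark columns. Regions with a TGF peak mark and at least 20 TGF reads were kept, classes and gene symbols being the authors'. Totals over listed regions (2490853 H3K9lc and 4215447 JUN reads) are not library depths, which are unknown. Shares carry exact 95% binomial intervals, and a ratio of shares a counting interval. A 4-fold ratio was the call for a gene. Sequence was read from GRCm38.p6, with copies of 31-base words counted on both strands. No sequence was picked from chromosome 18. Named genes were the 10 leading by share, the 10 leading with a single signal, the 10 largest ratios each way, fixed lists and genes the study names. Members and lists were chosen with earlier results of these data known. Functions were tested on simulated data with known answers in python 3.11.15, with pandas 2.3.3, numpy 2.4.6, scipy 1.17.1 and numba 0.67.0. 1 gene of the lists is not reported here by name.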

Additional observations from a re-analysis of the deposited data

How the results depend on the processing

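No paired analysis was possible because each antibody has 1 library per condition, and no replicate could be left out. The promoter ratio of JUN over H3K9lc shares (4.10) was 4.03 at a minimum of 10 reads, 3.80 at 50, 3.97 over every listed region, 4.36 without the top 1% of regions, 4.13 on chromosomes 1 to 19 and X, 4.18 in the siHK1 libraries, 4.07 with a JUN minimum of 34, 4.66 by regions, 4.93 by covered length and 5.70 within 1 kb. Added after seeing the data, regions found once in the assembly gave 2.45 and those shared with no other antibody 4.66. The chromosome 19 ratio (2.11) was 2.01 at a minimum of 10, 2.30 at 50, 1.96 over every listed region, 1.96 without the top 1%, 2.17 in siHK1, 1.82 by regions and 1.39 for regions found once. The ratio of the 10 leading genes' shares, H3K9lc over JUN (6.24), was 5.76 at a minimum of 10, 7.33 at 50, 5.51 over every listed region, 4.57 without the top 1%, 6.85 in siHK1, 5.68 with the JUN minimum of 34, 8.18 without distal regions, 7.64 with a gene's highest region, 16.2 for regions found once and 4.31 for unshared regions. Genes with H3K9lc alone (2799) numbered 1777 without distal regions, 807 with promoters only and 1608 for regions found once. The overlap (5.09%) was 7.89% for regions found once, while the JUN side fell from 3.04% to 1.75% of regions and from 7.60% to 3.41% of reads. The AP-1 ratio (5.13) was 3.23 in whole regions, 6.02 in the central 100 bp and 9.08 for TGACTCA only. Without the top 1% of regions, chromosome 17 reversed from 0.560 to 1.03 and Pisd-ps2 from a log2 ratio of -3.80 to 0.11. Without Irf7, also added after seeing the data, the JUN over H3K9lc ratio turned from 0.225 to 5.94 for interferon regulatory factors and from 0.794 to 2.19 for the study's genes. The cause of these changes was not tested. Genes with JUN alone (8796) ranged from 5935 to 10376.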
